A study of Mus musculus with 2 samples.

Results

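Mir10a, Mir10b, Mir196a-1, Mir196a-2, Mir196b and Mir615 are 6 microRNA genes that lie within the mouse Hox clusters. They were chosen by gene name in GENCODE M21 and not by level, though with earlier results of these data known. All 6 were among the 2202 microRNA genes counted. Small RNA under 30 bases was sequenced from the gastrocnemius, the calf muscle of the hindlimb, of adult male mice aged 8 to 10 months and labelled 5xFAD/CAST. 5xFAD is a transgenic line that models amyloid deposition, with transgenes driven by the neuronal Thy1 promoter, whereas CAST denotes a wild-derived inbred strain. Whether the sampled mice carried the transgenes is not stated. There is 1 group of 2 libraries, numbered biological replicates 1 and 2, from tissue samples that share 1 donor record, so their spread may be technical in part. No control, second muscle or second genotype stands beside them, and the relation of level to the hindlimb origin of the muscle was not tested.

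Hox genes encode transcription factors that set identity along the body axis and along the limb. Within a cluster they stand in the order in which they act, with low-numbered genes acting towards the head and high-numbered genes towards the tail and the end of the limb. The microRNAs between them are expressed in domains like those of their Hox neighbours, and they repress messenger RNAs through the seed, bases 2 to 8 of the mature strand. The miR-10 microRNAs lie beside the Hox4 genes, and the miR-196 microRNAs lie next to the Hox9 genes. MiR-196 is known for its presence in hindlimb and its near absence from forelimb in the mouse embryo, where it cleaves the messenger RNA of Hoxb8.

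The mature sequences are shown because the seed sorts the genes into families and because single bases decide which reads can be assigned to 1 gene. Mature sequences of all 6 genes were found in RefSeq (GRCm38.p6), and the seed is in capitals, read 5′ to 3′.
miR-10a-5p: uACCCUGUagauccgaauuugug
miR-10b-5p: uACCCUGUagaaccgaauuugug
miR-196a-5p: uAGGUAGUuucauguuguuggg
miR-196b-5p: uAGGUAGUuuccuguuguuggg
miR-615-3p: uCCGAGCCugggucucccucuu
miR-615-5p: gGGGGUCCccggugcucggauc

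The 6 genes thus form 3 families. MiR-10a-5p and miR-10b-5p share the seed ACCCUGU and differ by U12A, the miR-10a base first and counted from the 5′ end. MiR-196a-5p and miR-196b-5p share the seed AGGUAGU and differ by A12C, the miR-196a base first. No other mature mouse microRNA in that table held any of these seeds at bases 2 to 8. The miR-196 seed, moved by 1 base to start at base 3, was found in 9 mature sequences from 11 other genes, among them those of the let-7 family.

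Only the 2 miR-196a genes share a mature sequence. Their hairpins are shown with the shared run in capitals. The run is the 22 bases of miR-196a-5p and no more.
Mir196a-1: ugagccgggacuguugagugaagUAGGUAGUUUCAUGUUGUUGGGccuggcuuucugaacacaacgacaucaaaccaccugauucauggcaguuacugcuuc
Mir196a-2: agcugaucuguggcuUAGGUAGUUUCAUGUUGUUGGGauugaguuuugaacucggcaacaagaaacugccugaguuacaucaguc

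The hairpins part directly after the run, at C23A and C24U, with the Mir196a-1 base first and positions counted from the 5′ end of miR-196a-5p. A read of exactly the 22 mature bases matches both loci, while a read that runs past them, or a read of the 3p strand, matches 1. Mir10a and Mir10b share at most 15 bases in a row, Mir615 at most 14 with any other microRNA gene, and Mir196b at most 12. Copies were looked for in annotated transcripts only, and the rest of the genome was not searched. Multiply aligned reads entered none of the genes, and there were 3.18 and 3.51 such reads in replicates 1 and 2 for each sense read in a microRNA gene. How many of these came from miR-196a-5p was not measured, so the levels of Mir196a-1 and Mir196a-2 are uncertain.

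Mir196b (ENSMUSG00000065443.1) is the HoxA member, on chromosome 6 from 52230081 to 52230165 of mm10, minus strand. It lies in a non-coding part of an annotated Hoxa9 exon, 2343 bases past the coding span of Hoxa10 and 3976 bases before that of Hoxa9. HoxB holds Mir10a (ENSMUSG00000065519.1), on chromosome 11 from 96317165 to 96317274, 1495 bases before the Hoxb4 coding span. It also holds Mir196a-1 (ENSMUSG00000065546.1), from 96265164 to 96265265, 6276 bases before Hoxb9 and 68937 bases past Hoxb13. Both lie outside any annotated gene on their plus strand.

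HoxC holds Mir196a-2 (ENSMUSG00000065488.2), on chromosome 15 from 102973350 to 102973434, between Hoxc10 and Hoxc9. Mir615 (ENSMUSG00000076010.1) lies from 103014910 to 103015001 of the same chromosome, in the intron of Hoxc5. Long Hoxc5 transcripts that start near Hoxc10 also span Mir196a-2. Mir10b (ENSMUSG00000065500.3) is the HoxD member, on chromosome 2 from 74726070 to 74726137, 1141 bases before the Hoxd4 coding span and in introns of long Hoxd3 and Hoxd4 transcripts. All 6 genes lie on the strand of their Hox neighbours. The annotation has 1 further microRNA gene in the clusters, Gm44463 between Hoxd9 and Hoxd8 on the opposite strand, and it had 0 reads in both libraries.

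**Figure D1:**
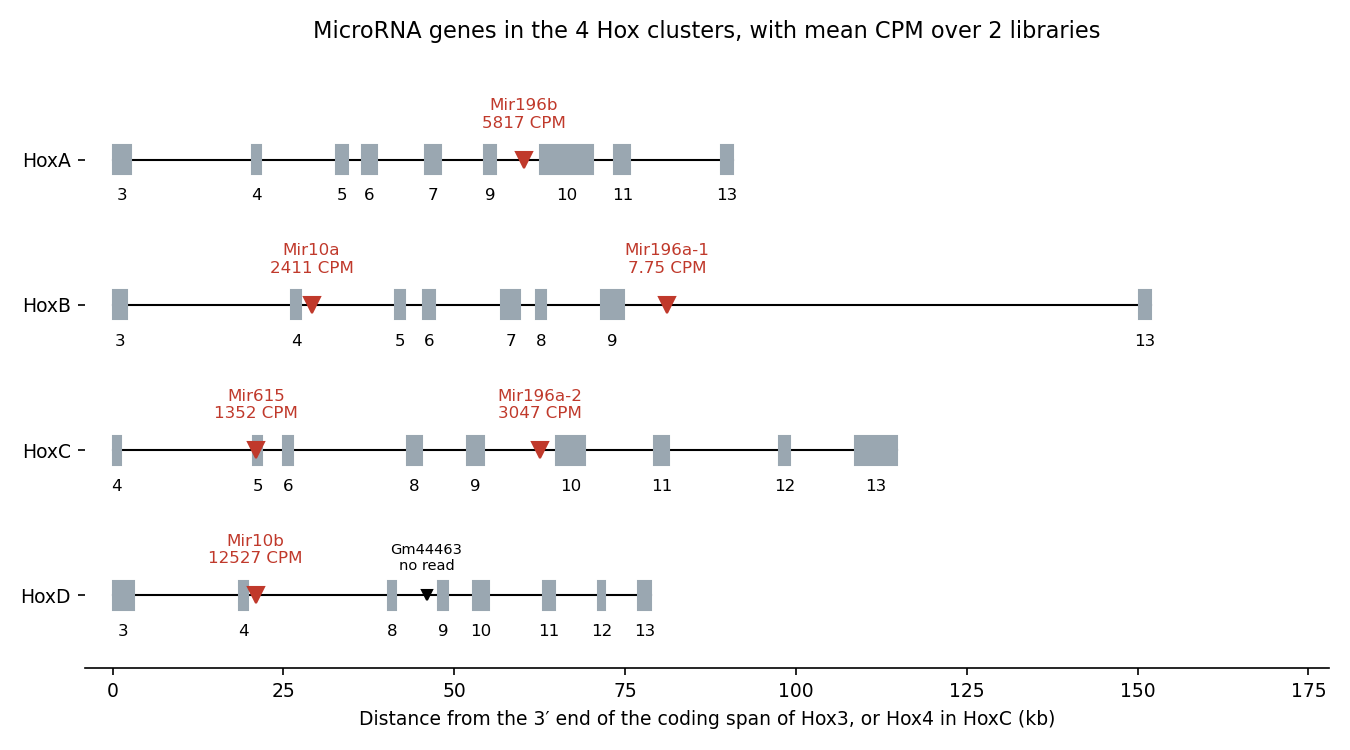
Map of the 4 Hox clusters from Hox3 (Hox4 in HoxC) on, 1 per line, by distance in kb from the 3′ end of the coding span of that gene. Grey boxes are coding spans of Hox genes with their numbers, red triangles the 6 microRNA genes with their mean CPM over 2 libraries, and the black triangle Gm44463. The 2 miR-10 genes stand beside Hox4 in HoxB and HoxD, and the 3 miR-196 genes next to Hox9 in HoxA, HoxB and HoxC.

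By reads assigned to 1 gene, Mir10b was the highest of the 6 genes, followed by Mir196b, and 5 of the 6 genes were above 1000 CPM. CPM is the number of sense reads for every 1000000 sense reads in all microRNA genes, of which replicate 1 had 1157420 and replicate 2 had 1193393. A read covers a mature strand and not part of a long transcript, so counts were not divided by hairpin length, and reads of the 5p and 3p strands are summed in each gene. The 6 genes together held 2.82% of the sense reads in replicate 1 (exact Clopper-Pearson 95% interval 2.79 to 2.85) and 2.22% in replicate 2 (2.19 to 2.24), or 2.52% ± 0.425 (SD, n = 2). These intervals cover counting error only. In bulk tissue, fewer cells of a type and less RNA per cell cannot be told apart.

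Mir10b had 16270 reads in replicate 1 and 13124 in replicate 2, or 14057 and 10997 CPM, with a mean of 12527 ± 2164 CPM (SD, n = 2). It ranked 20 of 2202 genes by this mean. Ranks here are by reads assigned to 1 gene, and genes with shared mature strands may rank too low. Mir10a had 2814 and 2854 reads, or 2431 and 2392 CPM, and a mean of 2411 ± 28.1 CPM, which ranked 40. The values of the 2 genes did not overlap, and Mir10b was the higher in each library. Within replicate 1 there were 5.78 Mir10b reads for each Mir10a read (exact binomial 95% interval 5.55 to 6.02), and 4.60 in replicate 2 (4.42 to 4.79). The mean ratio was 5.19 ± 0.837 (SD, n = 2). The intervals do not meet, so the ratio itself differed between the libraries beyond counting error, without any scaling between them.

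Mir196b had 7561 and 6089 reads in replicates 1 and 2, or 6533 and 5102 CPM, with a mean of 5817 ± 1011 CPM (SD, n = 2) and rank 26. Mir196a-2 had 4425 and 2711 reads, or 3823 and 2272 CPM, with a mean of 3047 ± 1097 CPM and rank 34. Mir196b was higher than Mir196a-2 in each library, by 1.71 times (exact binomial 95% interval 1.65 to 1.77) and 2.25 times (2.15 to 2.35). Since part of the miR-196a-5p reads may be missing from Mir196a-2, this order holds for the counted reads and need not hold for the molecules.

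Mir196a-1, which encodes the same miR-196a-5p as Mir196a-2, had only 16 reads in replicate 1 and 2 in replicate 2. This is 13.8 CPM (95% interval 7.90 to 22.4) and 1.68 CPM (0.203 to 6.05), and a count of 0 in these libraries allows up to 2.59 and 2.51 CPM. Mir196a-2 had 277 counted reads for each of Mir196a-1 in replicate 1 (170 to 484) and 1356 in replicate 2 (375 to 11198). The counted reads of the locus in HoxC thus exceeded those of the locus in HoxB by over 100 times in each library, although both carry the same 22-base mature strand. Reads of exactly that strand, which count for neither locus, have no part in this comparison. The other reads were assigned by matching sequence. Whether their bases past the mature strand came from the matched locus was not tested, so the comparison is of counted reads only.

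Mir615, in the Hoxc5 intron, had 1516 and 1664 reads in replicates 1 and 2, or 1310 and 1394 CPM, with a mean of 1352 ± 59.8 CPM (SD, n = 2) and rank 51. Its values lay below those of Mir10a and of Mir196a-2 in both libraries. On the strand opposite to the genes, 1 read was counted at Mir10a in replicate 1 and 0 at the other 5 genes in both libraries, so the counts of the 5 abundant genes stand far over the background measured in this way. The 2 reads of Mir196a-1 in replicate 2 lie within what a count of 0 allows.

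**Figure D2:**
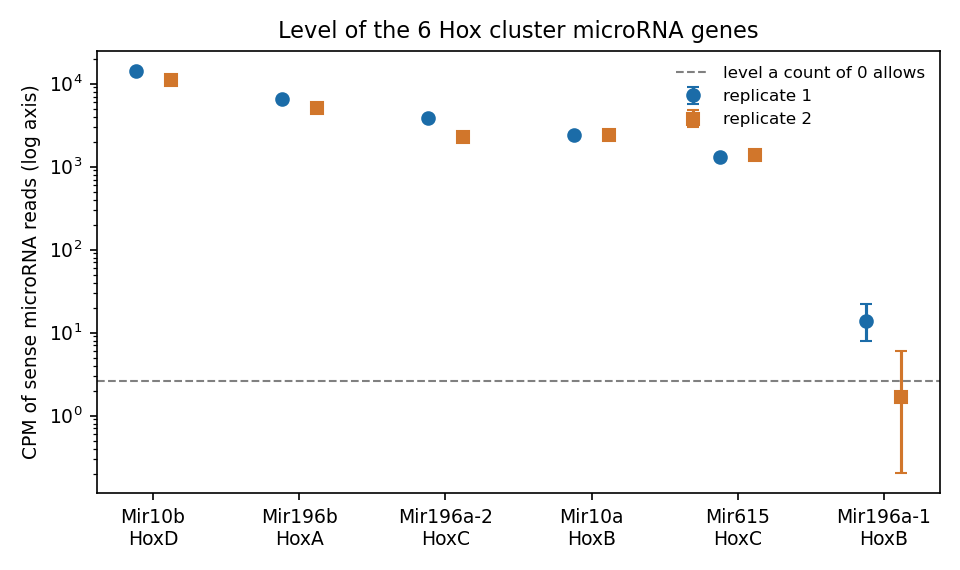
CPM of sense microRNA reads (log axis) for each gene, with its cluster, in replicate 1 (circles) and replicate 2 (squares). Bars are exact 95% intervals for counting error, smaller than the symbols for all but Mir196a-1, and the dashed line is the 2.59 CPM that a count of 0 allows in replicate 1.

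In order of mean counted level the genes were Mir10b, Mir196b, Mir196a-2, Mir10a, Mir615 and Mir196a-1. The values of Mir196a-2 and Mir10a overlapped. Mir196a-2 was 1.57 times Mir10a in replicate 1 (1.50 to 1.65) and 0.950 times in replicate 2 (0.901 to 1.00), so this pair has no settled order. The other neighbours in the order did not overlap. No test was made of differences between genes. Of the 321 genes detected at 2 CPM or more in both libraries, 57 reached 1000 CPM on average, the 5 abundant Hox cluster genes among them, and the median detected gene had 48.5 CPM.

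**Figure D3:**
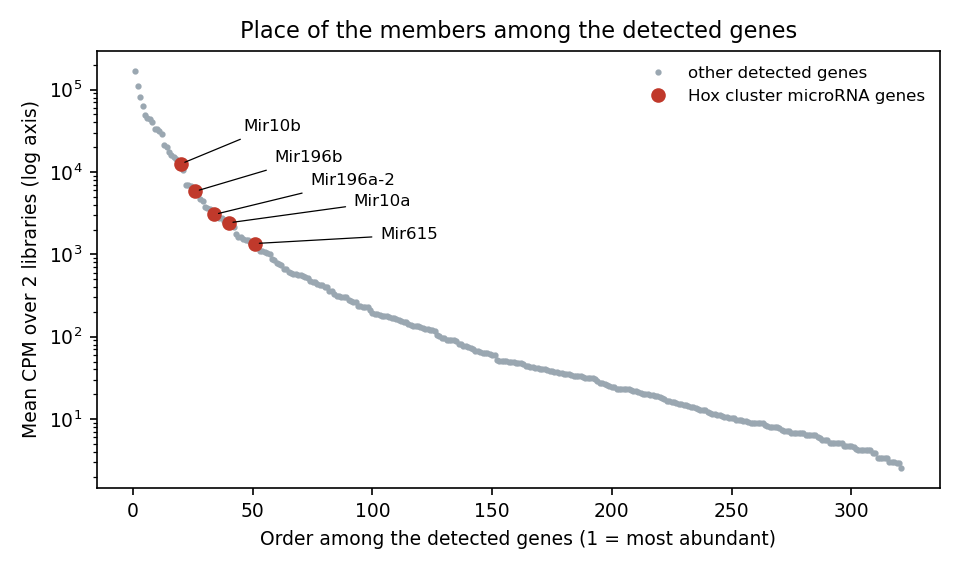
Mean CPM over 2 libraries (log axis) of the 321 detected genes in order of counted level, grey. The 5 detected Hox cluster genes are in red. They stand between rank 20 (Mir10b) and rank 51 (Mir615), and Mir196a-1 is not shown because it was below 2 CPM in replicate 2.

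The genes most like each member in level, by distance in log2(CPM + 1) over the 2 libraries, were picked by rule. For Mir196b they were Mir191, at 6603 and 5169 CPM and a distance of 0.02, and Mirlet7f-2 at 0.18. For Mir10a they were Mir98 at 0.11 and Mir214 at 0.21, and for Mir615 Mir361 at 0.15 and Mir28a at 0.22. Mir196a-2 stood nearest to Mir328 at 0.19 and Mir125a at 0.47. For Mir10b, Mir744 at 0.41 and Mir30a at 0.49 were the nearest. With 2 libraries of 1 tissue this likeness describes level only.

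By cluster, HoxD gave 49.9% of the reads of the 6 genes in replicate 1 and 49.6% in replicate 2, all from Mir10b. HoxA, through Mir196b, gave 23.2% and 23.0%. HoxC, with Mir196a-2 and Mir615, gave 18.2% and 16.5%, and HoxB, almost wholly Mir10a, 8.68% and 10.8%. Each cluster that has a microRNA gene in the annotation therefore gave reads, and the HoxD and HoxA shares were within 1 percentage point between libraries. By position along the clusters, the 3 genes near Hox4 and Hox5 (Mir10a, Mir10b, Mir615) held 1.63% ± 0.213 of all sense reads (SD, n = 2). The 3 miR-196 genes, next to Hox9, held 0.887% ± 0.212. Reads that both miR-196a genes share are missing from this value. Counted levels varied within a position. Mir10b and Mir10a have the same place beside Hox4 and differed 5.19 times on average. Mir196b and Mir196a-1 lie next to Hox9 genes with counted means of 5817 and 7.75 CPM, the latter uncertain for the shared reads.

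The 2 libraries were then compared for each gene, with library sizes scaled by TMM, a trimmed mean that assumes most genes alike. The exact binomial test used here compares the reads of 2 libraries, not conditions, and takes only counting error into account. Of the 6 genes, 5 passed the filter of 2 CPM in both libraries, and 4 of these 5 differed at an adjusted p under 0.05, against 37.4% of all 321 genes tested. They were 2 higher in replicate 2 and 2 higher in replicate 1, against 18.7% of all genes in each direction. All 5 were above 1000 CPM on average, whereas the median detected gene had 48.5 CPM. The test picks up smaller differences at higher counts, so the shares over all genes, here and below, are not matched for level. Among the 57 genes at 1000 CPM or more on average, which include these 5, most passed the test. The median log2 ratio of the 5 was -0.05, beside -0.01 for all detected genes.

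Mir615 was 1.32-fold higher in replicate 2 (95% interval 1.23 to 1.41, exact binomial adjusted p = 6.8e-14) and Mir10a 1.22-fold (1.15 to 1.28, exact binomial adjusted p = 1.1e-12). Mir196a-2 was 1.36-fold higher in replicate 1 (1.30 to 1.43, exact binomial adjusted p = 3.0e-36). Mir10b passed with a very small difference, 1.03-fold higher in replicate 1 (1.01 to 1.06, exact binomial adjusted p = 0.015), and Mir196b did not pass at 1.04-fold (1.00 to 1.07, exact binomial adjusted p = 0.11). All 5 lay within 1.5-fold, as did 42 of the 57 genes of 1000 CPM or more.

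Without scaling beyond the total counts, which shifts the median log2 ratio by -0.31, the calls changed. Then 3 of the 5 genes passed, against 46.4% of all genes tested: Mir10b, 1.28-fold, Mir196b, 1.28-fold, and Mir196a-2, 1.68-fold, all higher in replicate 1. Mir615 was then 1.06-fold higher in replicate 2 (0.992 to 1.14) and Mir10a was 1.02-fold higher in replicate 1, in neither case past the test. With DESeq2 size factors all 5 passed, against 41.4% of all genes. In the edgeR exact test with a fixed dispersion of 0.01, which allows for spread beyond counting, none of the 5 passed, against 16.5% of all genes. At an unadjusted p under 0.05, 1 of the 5 did, Mir196a-2 (edgeR exact p = 0.032), against 25.5% of all genes. In that test Mir196a-2 had an adjusted p of 0.14, Mir615 of 0.23 and Mir10a of 0.47. Mir196a-1, tested only without the filter, was 6.67-fold higher in replicate 1 (1.57 to 59.8, exact binomial adjusted p = 0.018), where 20.7% of 569 genes passed.

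**Figure D4:**
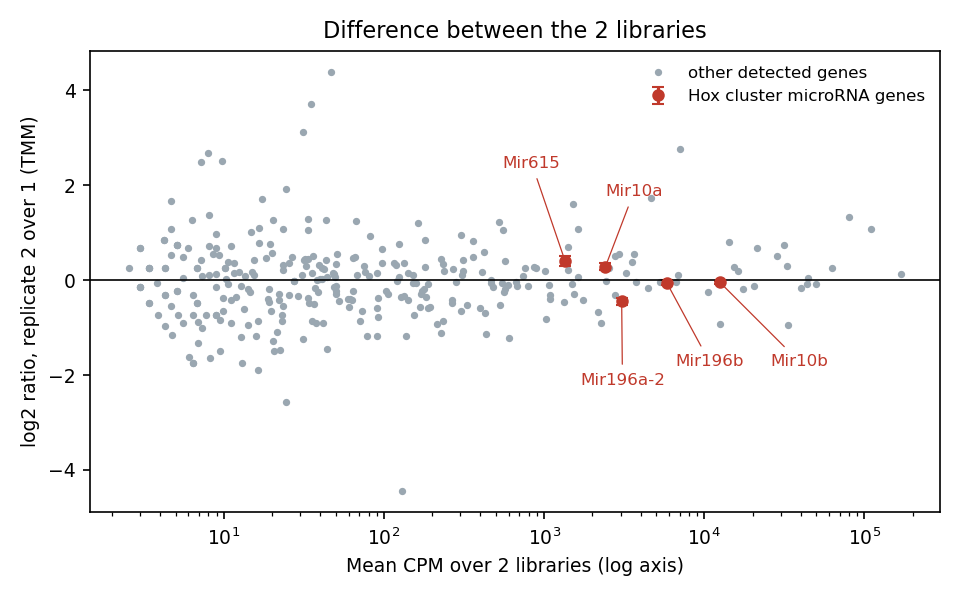
Log2 ratio of replicate 2 over replicate 1 after TMM scaling against mean CPM (log axis) for the 321 detected genes. Red points are the 5 Hox cluster genes with exact 95% intervals for counting error, and they lie between -0.44 for Mir196a-2 and 0.40 for Mir615.

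Ratios within a library need no scaling, and they showed which genes kept their proportions in counted reads. Mir10b reads were 2.15 times Mir196b reads in replicate 1 (exact binomial 95% interval 2.09 to 2.21) and 2.16 times in replicate 2 (2.09 to 2.22). These 2 genes lie on different chromosomes, in HoxD and HoxA. Mir10a was 1.86 times Mir615 in replicate 1 (1.74 to 1.98) and 1.72 times in replicate 2 (1.61 to 1.82), with intervals that overlap. In contrast, the 2 genes of HoxC did not keep their proportion: Mir196a-2 reads were 2.92 times Mir615 reads in replicate 1 (2.75 to 3.10) and 1.63 times in replicate 2 (1.53 to 1.73). The counted reads of the 2 genes that lie together in HoxC thus shifted against each other between the libraries by more than counting error. Mir196a-2 counts leave out the reads shared with Mir196a-1, so whether the amounts of the microRNAs shifted was not tested.

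**Figure D5:**
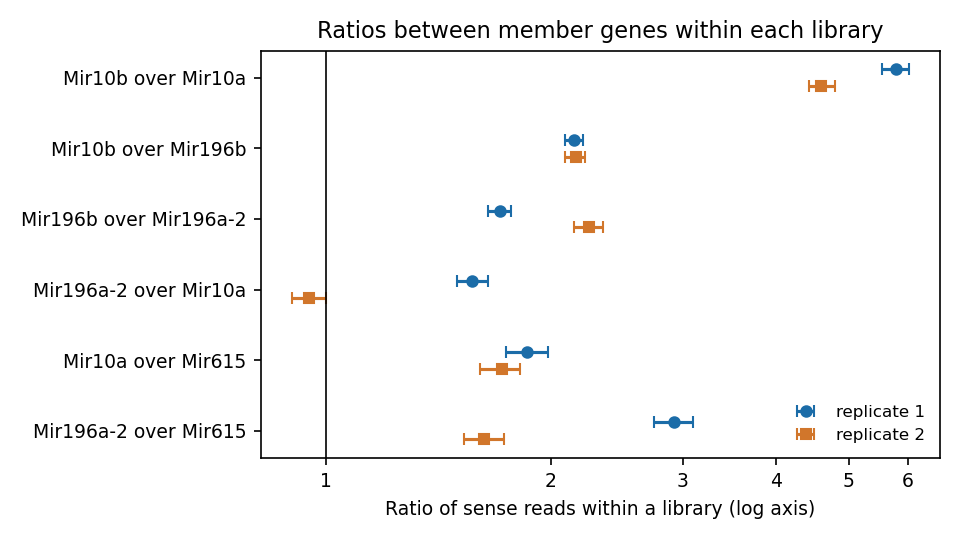
Ratio of sense reads of 1 gene over another within a library (log axis), in replicate 1 (circles) and replicate 2 (squares), with exact binomial 95% intervals. The Mir10b over Mir196b ratio was the same in both libraries within its interval, while Mir196a-2 over Mir615 moved from 2.92 to 1.63. Reads shared with Mir196a-1 are missing from Mir196a-2.

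Marker microRNAs of several cell types were compared between the libraries as well. The list shares are of all sense reads without TMM scaling, and TMM ratios are replicate 2 over replicate 1. The fibroblast and connective tissue list (5 genes, 4 detected, none at 0), led by Mir21a, held 2.04% of the sense reads in replicate 1 and 0.969% in replicate 2. Mir21a, at 17726 and 7511 CPM, was the 1 member of this list that passed the test, and Mir214, at 2701 and 2164 CPM, had a TMM ratio of 0.991 and did not. The endothelium list (2 genes, 1 detected), in effect Mir126a, held 8.08% and 13.8%. Smooth muscle microRNAs (2 genes, both detected), led by Mir143, held 5.08% and 4.21%, and the leukocyte list (4 genes, all detected), led by Mir155, 0.318% and 0.225%. The erythroid list (2 genes, both detected), led by Mir451a, held 0.0163% and 0.0153%, but this sum joins unlike members: Mir451a had 156 and 98.0 CPM and did not pass the test, while Mir144 had 7.78 and 54.5 CPM and was higher in replicate 2. The epithelium list (7 genes, 3 detected), led by Mir203, held 0.0124% and 0.00980%. Mir203 did not pass the test, while Mir200c, at 2.59 and 13.4 CPM, was higher in replicate 2. Of the 10 nerve genes, 4 were detected, led by Mir128-1, for 0.0402% and 0.0499%, and Mir124a-1, Mir124a-2, Mir124a-3, Mir9-2 and Mir9-3 had no read. By the test, 1 nerve gene was higher in replicate 2 and 1 in replicate 1. The skeletal muscle list (9 genes, 8 detected), led by Mir206, held 3.87% and 3.73%, and Mir133a-2 was its 1 undetected gene. By the test, 3 genes of this list were higher in replicate 2, among them Mir206 with a TMM ratio of 1.24, and 2 in replicate 1. The miR-1a, miR-133a, miR-124, miR-9, miR-128, miR-138 and miR-199a genes are duplicated loci with shared mature strands. Most of their reads may be missing from these counts, and a gene with no read may still be expressed. The list shares thus do not measure the amounts of those microRNAs. The part of these cell types in the differences of the Hox cluster genes was not tested.

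Mir99a, Mir99b and Mir100 are relatives of miR-10 outside the Hox clusters, and the miR-125 genes lie next to them in shared clusters. All 6 of these genes were detected and together held 7.95% and 6.58% of the sense reads in replicates 1 and 2, against 1.65% and 1.34% for the 2 miR-10 genes. Mir99a at 44069 ± 8129 CPM and Mir100 at 20313 ± 4344 CPM (SD, n = 2) stood above Mir10b in each library. Mir99b at 4661 ± 3009 CPM and Mir125a at 3247 ± 237 CPM stood between Mir10b and Mir10a by their means. Mir125b-1 at 237 ± 12.3 CPM and Mir125b-2 at 125 ± 14.1 CPM were lower by counted reads. These 2 genes encode the same miR-125b-5p, and reads that match both enter neither. Their levels and the sum of the 6 genes may therefore be too low. By the exact binomial test 2 of these 6 were higher in replicate 2 (Mir99b, 3.31-fold, and Mir125a, 1.12-fold) and 2 in replicate 1 (Mir99a, 1.05-fold, and Mir100, 1.10-fold), against 18.7% of all genes in each direction.

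The Hox messenger RNAs were not measured here, and their 3′ UTR sequences are given only as context for the levels. In GENCODE M21, 39 Hox genes have an annotated 3′ UTR, of median length 966 bases, close to the 961 bases over all 21021 protein-coding genes with one. The longest 3′ UTR of each gene was searched on its own strand for the complement of each seed. The match to the miR-196 seed, ACTACCT, was in 9 of the 39 Hox genes (23.1%) and in 6.10% of all genes. The genes with more than 1 match were Hoxa7, with 4, and Hoxc8, with 2. The miR-10 match, ACAGGGT, was in 4 of 39 (10.3%) and in 12.5% of all genes. The miR-615-3p match, GGCTCGG, was in 1 of 39 (2.56%, Hoxb4) and in 2.30% of all genes, and the miR-615-5p match, GGACCCC, in 4 of 39 (10.3%) and in 6.57%.

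Hoxb8 has no exact miR-196 seed match in this window, and yet it holds the longest pairing. Of 20915 genes with a 3′ UTR of at least 22 bases, Hoxb8 had the best ungapped pairing with miR-196a-5p, at 21 of 22 bases, followed by Kif5a at 17. The best pairing in the median gene was 13 bases. The site lies on chromosome 11 from 96284888 to 96284909 of GRCm38, plus strand, in the same cluster as Mir196a-1, and pairing bases are in capitals.
Hoxb8 site: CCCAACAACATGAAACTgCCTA

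The 1 base that does not pair by the Watson-Crick rule is U5G, the microRNA base first, counted from its 5′ end, which is a G:U pair. With miR-196b-5p the same site pairs at 20 of 22 bases, also the best of all genes searched, with C12U as the second position. Position 12 is the base at which miR-196b-5p and miR-196a-5p differ. For miR-10a-5p and miR-10b-5p the best Hox pairing was 14 and 15 of 23 bases, beside 13 in the median gene. A match is a description of these sequences and not evidence of repression in this muscle.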

How the data were processed

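The authors deposited for each microRNA gene a whole-number read count without normalization, in columns for both strands, the gene's strand and the opposite strand, without a header. The assembly mm10 and GENCODE M21 are given in the deposited text descriptions. The column layout is that of STAR gene counts, in which a multiply aligned read enters no gene; the aligner itself is not given in the sources used here. Counts on the strand of the gene were used, as the stranded column with the larger total. The 4 leading lines name no gene and held 81.1% and 82.0% of 6119818 and 6632802 reads. They were left out of library sizes and tests.

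CPM used sense totals. Library sizes were scaled by TMM over detected genes (edgeR 4.0.16, R 4.3.3; factors 1.11 and 0.899). Each gene at 2 CPM or more in both libraries was compared by a conditional binomial test (exact, two-sided), with Benjamini-Hochberg adjustment over all 321 genes at 0.05. The log2 ratios have a pseudocount of 1 CPM. Python 3.11.15, numpy 2.4.6, pandas 2.3.3 and scipy 1.17.1 were used. The test was checked on simulated data with counting error only, which cannot show how it behaves with wider spread. Genes named were the 6 members, other microRNA genes within 10 kb of the clusters, the 2 nearest genes in level, the miR-10 relatives and the leading marker of each list. Some Hox genes with matches and Kif5a were named after the search, and some further markers after the test. The members and lists were chosen with earlier results of these data known. Alternatives were other scalings (DESeq2 1.42.0), filters, denominators, columns and tests.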

Additional observations from a re-analysis of the deposited data

How the results depend on the processing

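The summed level of the 6 genes, 25163 CPM, was 35745 CPM with the column of both strands, 30351 CPM with the most abundant gene left out of the denominator and 4657 with all reads as the denominator. It was 22159 CPM without replicate 1 and 28168 CPM without replicate 2. The column of both strands has a smaller denominator, 832260 and 818309 reads in replicates 1 and 2. Reads that match genes on both strands, 325180 and 375109, are left out of it. The Mir10b to Mir10a ratio of 5.19 lay between 4.60 and 5.78 with either replicate left out, and was 5.19 with both strands. The number of members that differed between the libraries, 4, was 5 with DESeq2 size factors and without a filter, 3 with total counts only, and 0 by edgeR (exact test, dispersion 0.01), where 53 of all genes passed in place of 120. With total counts only, the Mir10a log2 ratio turned from 0.28 to -0.02. With the column of both strands Mir10b did not pass (exact binomial adjusted p = 0.80). No paired analysis was possible because the series has 1 group. Mir196a-1 had too few reads for a firm level, and reads shared by the 2 miR-196a genes limit both.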
